A study of Mus musculus with 6 samples.

Results

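Liver cells sense glucose and fructose through a small group of proteins, and 8 of their genes are described here by name: *Mlxipl*, *Srebf1*, *Slc2a2*, *Khk*, *Gckr*, *Pklr*, *Thrsp* and *Pnpla3*. The genes were chosen by symbol for their known roles, with earlier results of these data known. In the count table, 8 of the 49671 genes carry these symbols. All 8 passed the filter on low counts that 16089 genes passed. All mice ate the AMLN diet, a fatty liver diet that supplies much of its energy as fat and fructose and contains cholesterol.

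Liver RNA was sequenced from 3 SHMT2fl/fl and 3 SHMT2HKO mice. Both groups were homozygous for a floxed allele of *Shmt2*, the mitochondrial enzyme that turns serine into glycine, and SHMT2HKO mice also carried Albumin-Cre, which deletes the floxed exons in hepatocytes. The study's methods describe male mice, weaned at 3 weeks of age onto chow, which ate the AMLN diet from 4 weeks of age for 18 weeks and were harvested at 22 weeks after a fast of several hours. The labels call the groups WT and KO, and WT was read as the floxed control without Cre, as in the study. The study proposes that SHMT2 expression in other liver cells of SHMT2HKO mice is not affected, which was not measured here. A diet control without the AMLN diet was not analysed here.

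The sugar-sensing pathway runs from uptake to gene expression. Fructose and glucose enter the hepatocyte and are phosphorylated, fructose by ketohexokinase, and the products raise the activity of the carbohydrate-response factor ChREBP, which *Mlxipl* encodes. ChREBP binds carbohydrate response elements (ChoREs) together with its partner Mlx and drives genes of glycolysis and fat synthesis, while insulin and liver X receptors act on many of the same genes through SREBP-1c, a product of *Srebf1*. In the liver these factors are best known for turning dietary sugar into fat.

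Counts on genes summed to between 23090837 and 34089722 per mouse. *Shmt2* itself checked the labels, with 94.6, 109 and 93.9 CPM in SHMT2fl/fl mice 1, 2 and 3 and 24.9, 28.3 and 19.3 CPM in SHMT2HKO mice 1, 2 and 3 (log2 fold change -2.04, SE 0.16). CPM are read counts scaled to a common library size by TMM, a method that takes most genes as unchanged, and every log2 fold change is SHMT2HKO relative to SHMT2fl/fl. The hepatocyte markers *Alb*, *Ttr*, *Apoa1* and *Apob* were all abundant, with *Alb* between 34486 and 65656 CPM, as fits the labelled tissue. SHMT2HKO mouse 1 stood apart from SHMT2HKO mice 2 and 3 on the 2nd principal component of log2 CPM (-60.6 against 34.9 and 33.2), which held 19.4% of the variance. The fat cell gene *Plin1* was at 4.24 CPM and *Adipoq* at 2.67 CPM in that mouse, and both were at 0.130 CPM or less in the other 5 mice.

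Most of the 8 genes were more abundant in SHMT2HKO livers under TMM scaling. Of the 8 genes, 6 passed an adjusted p-value of 0.05 in the quasi-likelihood test of edgeR (Benjamini-Hochberg over all genes tested), and all 6 were higher, where 29.0% of all genes tested passed in either direction and 12.5% passed as higher. For 7 of the 8, every SHMT2HKO mouse lay above every SHMT2fl/fl mouse, against 21.9% of all genes tested, and for 0 every SHMT2HKO mouse lay below, against 25.0%. A fitted log2 fold change of 1 or more was reached by 5 of the 8 and by 5.17% of all genes tested. The median log2 fold change of the 8 was 1.26, and that of all genes tested was 0.03. The call was made for *Mlxipl*, *Pklr*, *Khk*, *Gckr*, *Thrsp* and *Pnpla3*, and was not made for *Srebf1* and *Slc2a2*. TMM scaling entered every value, since its factors were 1.13 to 1.21 in SHMT2fl/fl and 0.802 to 0.984 in SHMT2HKO livers. Scaled to the ERCC spike-in RNAs, the median gene moved by -0.72 and 3 of the 8 genes (*Pklr*, *Thrsp* and *Pnpla3*) kept their call, against 0.665% of all genes called higher.

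**Figure D1:**
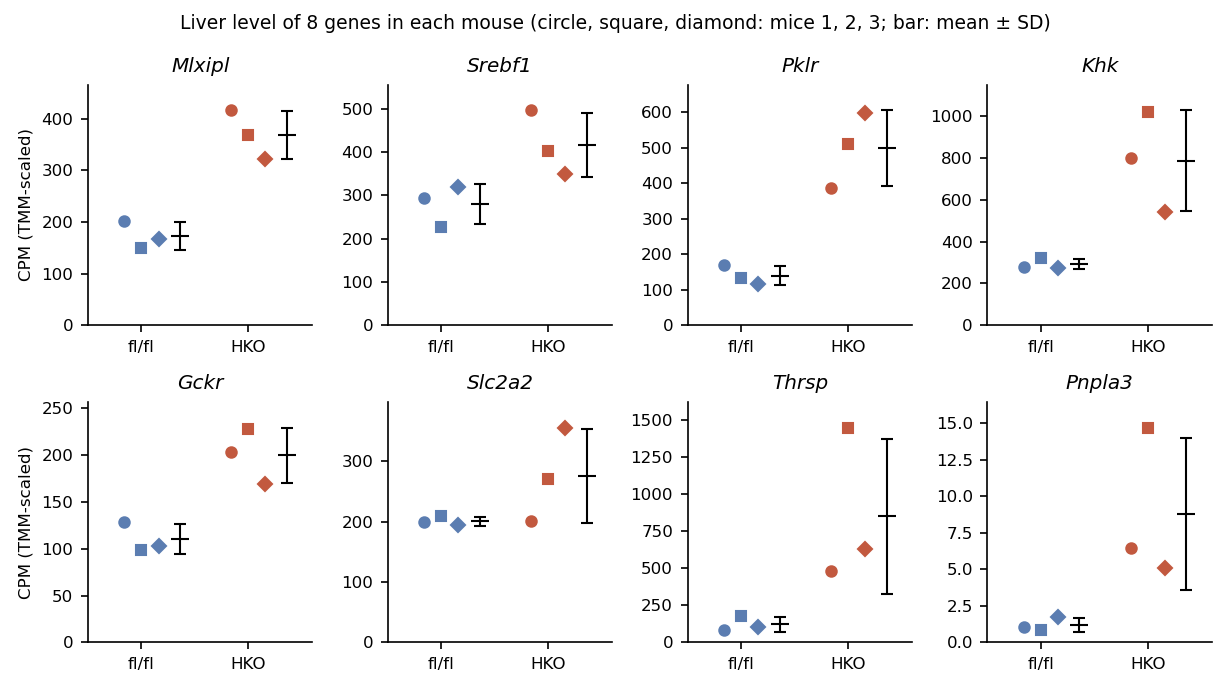
CPM (TMM-scaled, linear axes from 0) of each of the 8 genes in each mouse, SHMT2fl/fl in blue and SHMT2HKO in red, with black bars for the mean ± SD of 3 mice. The groups are apart for 7 genes, while for *Slc2a2* SHMT2HKO mouse 1 (201 CPM) lies within the SHMT2fl/fl range of 194 to 209 CPM.

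*Mlxipl* (ENSMUSG00000005373, chromosome 5, 135089890 to 135138382, plus strand) encodes ChREBP, the transcription factor that responds to sugar phosphates. Its level was 202, 150 and 166 CPM in SHMT2fl/fl mice 1, 2 and 3, and 416, 368 and 322 CPM in SHMT2HKO mice 1, 2 and 3. The lowest SHMT2HKO mouse was 1.59-fold above the highest SHMT2fl/fl mouse. The mean rose from 173 ± 26.8 to 369 ± 47.3 CPM (SD, n = 3 mice each), a log2 fold change of 1.09 (SE 0.17, adjusted p = 0.00324). With ERCC scaling, the log2 fold change was 0.31 (adjusted p = 0.61). The counts are per gene, so the long ChREBP form and the short, more active form, made from a start upstream of that of the long form, were counted together.

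RefSeq lists a pair of starts for *Mlxipl* in GRCm38.p6, and the bases before each hold a different short motif, shown here because ChREBP and SREBP sites are the subject of this gene group. The 250 bases before each RefSeq start were searched on both strands for 4 motifs: the E-box CACGTG, the sterol response element TCACNCCAC, the CCAAT box, and the ChoRE, which joins a pair of E-box-like elements. Capitals mark the match.
Mlxipl E-box: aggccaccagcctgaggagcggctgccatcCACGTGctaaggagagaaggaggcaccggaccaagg
Mlxipl sterol response element: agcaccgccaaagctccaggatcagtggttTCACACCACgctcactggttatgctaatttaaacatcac
The E-box stretch is the plus strand of chr5:135089762-135089827, with the match 98 to 93 bases before the upstream start, outside the gene. The sterol response element stretch is the plus strand of chr5:135106725-135106793, in an intron of transcripts from the upstream start, with the match 136 to 128 bases before the downstream start. Of the 32851 mouse windows of this length, 6.02% held the E-box and 1.05% the sterol response element. A match describes the letters of the window and does not show that a factor binds there.

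*Srebf1* (ENSMUSG00000020538, chromosome 11, 60199089 to 60222581, minus strand) encodes SREBP-1, whose liver form SREBP-1c drives lipogenic genes under insulin. Its level was 293, 228 and 320 CPM in SHMT2fl/fl mice and 497, 402 and 350 CPM in SHMT2HKO mice. The groups did not overlap, but the lowest SHMT2HKO mouse was only 1.09-fold above the highest SHMT2fl/fl mouse. The log2 fold change was 0.57 (SE 0.19) and did not pass the threshold (adjusted p = 0.0553). It passed with DESeq2 (adjusted p = 0.0103), with limma-voom (0.0467) and without SHMT2HKO mouse 3 (0.0265), and its sign turned with ERCC scaling, to -0.24. SREBP-1a and SREBP-1c come from the same gene and were not separated by these counts, and 109 bp of the gene overlap *Rai1* on the opposite strand.

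The partners of both factors were mostly not called. *Mlx*, which ChREBP needs to bind DNA, reached a log2 fold change of 0.41 (adjusted p = 0.0546), and the ChREBP paralog *Mlxip* (MondoA) a value of -0.37 (adjusted p = 0.377). *Srebf2*, the paralog that drives cholesterol synthesis, differed by 0.14 (adjusted p = 0.435). Of 13 transcription factor partners, 4 were called higher and 0 lower, with a median of 0.30 under TMM and -0.47 with ERCC scaling, beside 12.5% and 16.5% of all genes tested. Without TMM 1 was called higher and 3 lower, and with ERCC scaling 0 were called higher. Of all 16089 genes tested, 539 were called higher and 4923 lower without TMM, and 107 higher with ERCC scaling. *Insig1*, a SREBP target that holds the SREBP escort in the endoplasmic reticulum, was the largest, at 1.27 (SE 0.18, adjusted p = 0.00258). The other 3 called were *Insig2*, the SREBP escort *Scap*, and *Nr1h3*, which encodes the liver X receptor LXRα. Between 2 and 6 partners were called higher when 1 mouse was left out, with the fewest without SHMT2fl/fl mouse 1 or mouse 3 and the most without SHMT2HKO mouse 3.

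*Slc2a2* (ENSMUSG00000027690, chromosome 3, 28697903 to 28731359, plus strand) encodes GLUT2, the main hexose carrier of the hepatocyte membrane. Its level was 200, 209 and 194 CPM in SHMT2fl/fl mice and 201, 270 and 356 CPM in SHMT2HKO mice. SHMT2HKO mouse 1 lay inside the SHMT2fl/fl range and SHMT2HKO mice 2 and 3 above it. The spread between SHMT2HKO mice (CV 28.2%) was much wider than between SHMT2fl/fl mice (CV 3.70%). The log2 fold change of 0.46 (SE 0.20) did not pass (adjusted p = 0.129), became 0.64 without SHMT2HKO mouse 1 (adjusted p = 0.0179) and 0.21 without SHMT2HKO mouse 3 (adjusted p = 0.345), and turned to -0.12 with ERCC scaling.

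The other hexose carriers were far less abundant. *Slc2a5*, which encodes the fructose carrier GLUT5, was at 4.84, 3.99 and 4.36 CPM in SHMT2fl/fl mice and 18.9, 11.5 and 10 CPM in SHMT2HKO mice. It was the only hexose carrier that rose by more than 1 on the log2 scale (1.61, SE 0.26, adjusted p = 0.00362), and its value with ERCC scaling was 0.76 (adjusted p = 0.362). *Slc2a1*, the GLUT1 carrier found in most other cells, had a log2 fold change near 0 (0.10, adjusted p = 0.713). Of 10 family members other than *Slc2a2*, 2 were called higher and 2 lower, with a median of 0.00, which is near the 12.5% and 16.5% of all genes tested. The 2 lower ones were *Slc2a10*, between 1.02 and 1.28 CPM in SHMT2fl/fl and between 0.255 and 0.304 CPM in SHMT2HKO mice, and *Slc2a12*, at 0.527 CPM or less in all 6 mice. The call of *Slc2a12* was held by 7 of the 14 alternatives that tested it, and 1 family member was called in each direction without any 1 of the SHMT2fl/fl mice or without SHMT2HKO mouse 2.

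*Khk* (ENSMUSG00000029162, chromosome 5, 30921431 to 30931248, plus strand) encodes ketohexokinase, which traps fructose in the liver as fructose 1-phosphate. Its level was 280, 321 and 276 CPM in SHMT2fl/fl mice and 801, 1022 and 541 CPM in SHMT2HKO mice. The lowest SHMT2HKO mouse was 1.69-fold above the highest SHMT2fl/fl mouse, and the SHMT2HKO mice differed among themselves by up to 1.89-fold. *Khk* rose by a log2 fold change of 1.43 (SE 0.24, adjusted p = 0.00419), which was 0.60 with ERCC scaling (adjusted p = 0.343). The liver form and the broadly expressed form of the enzyme, which use different exons, were counted together.

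The window before the *Khk* start held an E-box, which is shown because the same letters were found before *Mlxipl*.
Khk E-box: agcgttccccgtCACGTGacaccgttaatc
This is the plus strand of chr5:30921476-30921505, 71 to 66 bases before the RefSeq start, and lies in an exon of a longer GENCODE transcript. Among the 8 genes, *Khk* and *Mlxipl* were the 2 with an E-box in a window.

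Enzymes that act on fructose after *Khk* were higher too. *Tkfc*, which phosphorylates the glyceraldehyde made from fructose, was at 423, 343 and 342 CPM in SHMT2fl/fl mice and 696, 717 and 592 CPM in SHMT2HKO mice, and rose by 0.86 on the log2 scale (SE 0.16, adjusted p = 0.00694). Of 7 genes of fructose and polyol handling, 5 were called higher and 1 lower, with a median of 0.86 under TMM and 0.09 with ERCC scaling, and these counts stood at 5 and 1 whichever mouse was left out. They were 3 higher and 2 lower without TMM, and 0 higher and 1 lower with ERCC scaling. Of all 16089 genes tested, 12.5% were called higher and 16.5% lower under TMM, and 539 higher and 4923 lower without TMM. *Sord*, which makes fructose from sorbitol, rose by 1.06 (SE 0.18), and the glycerate kinase *Glyctk* was called higher as well. The gene called lower was *Akr1b3*, the aldose reductase that makes sorbitol from glucose, at -0.72 (SE 0.13, adjusted p = 0.0064), and it was called lower in all 15 alternatives.

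*Gckr* (ENSMUSG00000059434, chromosome 5, 31297443 to 31327314, plus strand) encodes a regulatory protein of hepatocyte glucose phosphorylation whose action fructose 1-phosphate relieves. Its level was 129, 98.9 and 103 CPM in SHMT2fl/fl mice and 203, 228 and 169 CPM in SHMT2HKO mice. The groups did not overlap, with the lowest SHMT2HKO mouse 1.31-fold above the highest SHMT2fl/fl mouse. *Gckr* rose by 0.86 on the log2 scale (SE 0.16, adjusted p = 0.00694), the smallest change of the 6 genes called, and the value was 0.42 without TMM (adjusted p = 0.0621) and 0.07 with ERCC scaling (adjusted p = 0.91).

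*Pklr* (ENSMUSG00000041237, chromosome 3, 89136142 to 89146784, plus strand) encodes the liver and red cell pyruvate kinase, the last enzyme of glycolysis and a classical ChREBP target. Its level was 169, 134 and 115 CPM in SHMT2fl/fl mice and 386, 511 and 598 CPM in SHMT2HKO mice. Every SHMT2HKO mouse was at least 2.28-fold above every SHMT2fl/fl mouse. *Pklr* rose from a mean of 140 ± 27.3 to 498 ± 107 CPM (SD, n = 3 each), a log2 fold change of 1.83 (SE 0.22, adjusted p = 0.0014). It was called in all 15 alternatives, and was 1.21 with ERCC scaling (adjusted p = 0.0372), where SHMT2HKO mouse 1 lay within the range of the SHMT2fl/fl mice. The 3′ end overlaps *Hcn3* on the opposite strand over 711 bp, and *Hcn3* held 8.32% as many counts as *Pklr* in all mice together.

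*Pklr* was the only gene of the 8 with a ChoRE match, which lay before the downstream start, the one of the liver enzyme.
Pklr ChoRE: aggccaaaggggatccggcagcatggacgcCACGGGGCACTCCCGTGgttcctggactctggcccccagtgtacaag
The stretch is the plus strand of chr3:89136423-89136499, in an intron of transcripts from the upstream start, with the match 170 to 154 bases before the downstream start. The motif was found in 32 of 32851 windows (0.0974%). A window without these letters shows nothing about ChREBP at the other 7 genes, whose sites can lie elsewhere or differ in sequence.

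Pyruvate kinase of other cells went the other way. *Pkm*, which encodes the form of most cells other than hepatocytes, was at 107, 103 and 103 CPM in SHMT2fl/fl mice and 74.6, 69.7 and 66.6 CPM in SHMT2HKO mice. It fell by 0.57 on the log2 scale (SE 0.11, adjusted p = 0.00675) and was called lower in all 15 alternatives. Of 11 glycolytic enzymes found in liver, 8 were called higher and 0 lower, with a median of 0.66 under TMM and -0.12 with ERCC scaling, and among them *Pfkfb1*, the liver form of the enzyme that sets fructose 2,6-bisphosphate, rose by 1.11 (SE 0.20, adjusted p = 0.0056). That count was 0 with ERCC scaling, 2 without TMM, 2 without any 1 of the SHMT2fl/fl mice and 3 without SHMT2HKO mouse 2. Of 10 isozymes and carriers typical of other cells, 3 were called lower and 0 higher, namely *Pkm*, hexokinase 1 (*Hk1*, -1.18, SE 0.18) and platelet phosphofructokinase (*Pfkp*, -1.28, SE 0.21), and all 3 were also called lower with ERCC scaling. Among all genes tested, 12.5% were called higher and 16.5% lower under TMM.

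*Thrsp* (ENSMUSG00000035686, chromosome 7, 97412938 to 97417730, minus strand) encodes Spot 14, a nuclear protein induced by carbohydrate feeding and thyroid hormone that promotes fat synthesis. Its level was 86.1, 178 and 102 CPM in SHMT2fl/fl mice and 479, 1451 and 630 CPM in SHMT2HKO mice. SHMT2HKO mouse 2 was 3.03-fold above SHMT2HKO mouse 1, and even the lowest SHMT2HKO mouse was 2.69-fold above the highest SHMT2fl/fl mouse. *Thrsp* rose by 2.81 on the log2 scale (SE 0.47, adjusted p = 0.00517) and by 2.19 without SHMT2HKO mouse 2 (adjusted p = 0.00901). With ERCC scaling the value was 2.07 (adjusted p = 0.000118). Its paralog *Mid1ip1*, which acts on acetyl-CoA carboxylase, differed by 0.21 on the log2 scale (adjusted p = 0.248).

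*Pnpla3* (ENSMUSG00000041653, chromosome 15, 84167837 to 84187236, plus strand) encodes a lipid droplet protein of the patatin-like family, known from the human gene's association with fatty liver. It was the least abundant of the 8, with 1.03, 0.828 and 1.75 CPM in SHMT2fl/fl mice and 6.49, 14.7 and 5.12 CPM in SHMT2HKO mice. These rest on 42, 22 and 67 counts and on 153, 291 and 130 counts, above the floor of 3 counts. Every SHMT2HKO mouse was at least 2.93-fold above every SHMT2fl/fl mouse. *Pnpla3* rose by 2.85 on the log2 scale (SE 0.47, adjusted p = 0.00434), by 2.26 without SHMT2HKO mouse 2 (adjusted p = 0.0109), and by 1.96 with ERCC scaling (adjusted p = 0.0114). Within its family, *Pnpla5* was at 0.318 CPM or less in SHMT2fl/fl mice and at 1.36, 4.56 and 0.866 CPM in SHMT2HKO mice, and rose by 3.59 (SE 0.77, adjusted p = 0.0115). The SHMT2fl/fl values of *Pnpla5* rest on 13, 2 and 5 counts. Leaving out 1 mouse moved its log2 fold change to between 2.58 and 4.34, with an adjusted p of up to 0.0555. *Pnpla2*, the main triglyceride lipase of the family, differed by 0.11 (adjusted p = 0.658). Of the 5 family members tested besides *Pnpla3*, 3 were called higher and 0 lower under TMM, and 1 was called higher with ERCC scaling or without SHMT2fl/fl mouse 3. The shares of all genes tested were 12.5% higher and 16.5% lower under TMM, and 0.665% higher with ERCC scaling.

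Fat synthesis is the best known output of ChREBP. Of 12 lipogenic enzymes, which ChREBP and SREBP-1c share, 11 were called higher and 0 lower, with a median of 1.34 under TMM and 0.61 with ERCC scaling. Of all genes tested, 12.5% were called higher and 16.5% lower under TMM, and 0.665% higher with ERCC scaling. The largest were *Acacb* (2.20, SE 0.36) and *Acss2* (2.18, SE 0.53), which make malonyl-CoA and acetyl-CoA. *Acss2* was at 1.28 without SHMT2HKO mouse 2 (adjusted p = 0.00861). It did not pass without SHMT2fl/fl mouse 1, 2 or 3 (adjusted p = 0.0751, 0.0867 and 0.075) or with no filter on low counts (0.142). The other 6 called at a log2 fold change of 1 or more were *Acly* (1.58), *Fasn* (1.59), *Elovl5* (1.33), *Elovl6* (1.34), *Scd1* (1.30) and *Me1* (1.86). SHMT2HKO mouse 2 was highest, with a summed level of 55944 CPM over the 12 enzymes, of which *Scd1* alone made up 45874 CPM, against 20774 and 31382 CPM in SHMT2HKO mice 1 and 3 and 13941 to 16411 CPM in SHMT2fl/fl mice. The count fell to 4 without SHMT2fl/fl mouse 1 or mouse 3, to 5 without SHMT2fl/fl mouse 2, to 6 with no filter on low counts, to 7 without TMM and to 2 with ERCC scaling.

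Of 12 ChREBP targets outside lipogenesis, 3 were called higher and 0 lower, with a median of 0.12 under TMM and -0.59 with ERCC scaling, beside 12.5% and 16.5% of all genes tested. The count called higher was 1 without TMM, 1 with upper-quartile scaling and 0 with ERCC scaling, and the difference from the lipogenic list was not tested. The 3 were *Gpd1*, which makes glycerol 3-phosphate and rose by 1.09 (SE 0.16, adjusted p = 0.00261), the glucose 6-phosphate carrier *Slc37a4* (0.63) and the transketolase *Tkt* (0.59). *Txnip*, a sugar-induced brake on glucose uptake, was at 171, 273 and 199 CPM in SHMT2fl/fl mice and 77.0, 102 and 240 CPM in SHMT2HKO mice (log2 fold change -0.62, adjusted p = 0.296). Its relative *Arrdc4* stood at -0.67 (adjusted p = 0.0571), the groups did not overlap, and it was called lower in 7 of 15 alternatives. The hormone gene *Fgf21* was at -0.56 (adjusted p = 0.275), the glucose 6-phosphatase gene *G6pc* at -0.05 (adjusted p = 0.925), and *Rgs16* at 1.5 (adjusted p = 0.122) with 27.6 CPM in SHMT2HKO mouse 1 and 183 CPM in SHMT2HKO mouse 3. *Arrdc4*, *Txnip* and *Fgf21* are named here for their values, outside the rule for naming genes, as are *Rgs16* and *G6pc*. The count of genes called higher was 1 without SHMT2fl/fl mouse 1, SHMT2fl/fl mouse 3 or SHMT2HKO mouse 2, and 3 genes were called lower without SHMT2HKO mouse 3.

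Glucose 6-phosphate also feeds the pentose phosphate pathway and glycogen. Of 7 pentose phosphate pathway genes, 2 were called higher (*Tkt* and *Taldo1*, of the branch without oxidation) and 2 lower (*G6pdx*, of the NADPH-making branch, and *Rpia*), with a median of 0.34 under TMM and -0.43 with ERCC scaling, and 0 were higher and 2 lower without TMM and 0 were called in either direction with ERCC scaling. Of 8 glycogen genes, 5 were called higher and 0 lower, with a median of 0.65 under TMM and -0.05 with ERCC scaling, and 1 was higher and 1 lower without TMM and 0 were higher with ERCC scaling. Leaving out 1 mouse changed these calls, to between 0 and 3 higher and 0 and 2 lower for the pentose phosphate pathway, where 0 were lower without any 1 of the SHMT2fl/fl mice, and to between 1 and 6 higher for glycogen, with the fewest without SHMT2fl/fl mouse 2. Over all 10 lists, 41 of 90 genes tested were called higher and 8 lower, against 12.5% and 16.5% of all genes tested. With ERCC scaling, 3 of these list genes were called higher. Without TMM, 539 of all 16089 genes tested were called higher and 4923 lower. The lists were chosen with earlier results of these data known, so these counts are only a description.

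**Figure D2:**
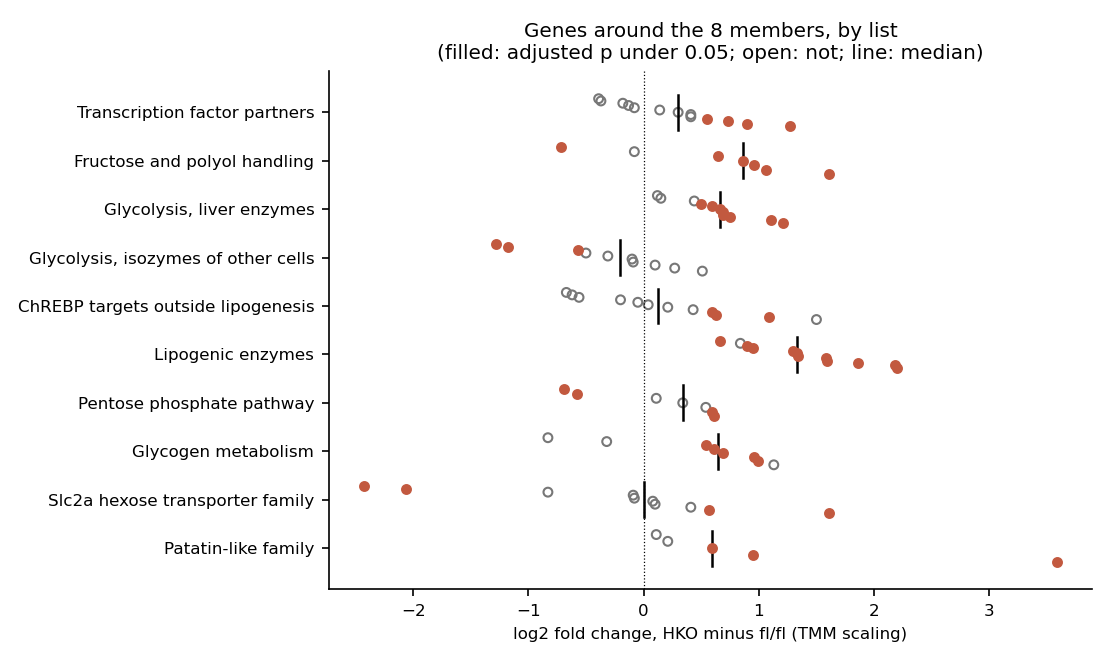
Log2 fold change (SHMT2HKO minus SHMT2fl/fl, TMM scaling) of each tested gene in the 10 lists around the 8 genes, filled where the adjusted p-value was under 0.05 and open where not, with a line at each list's median. Lipogenic enzymes have the highest median (1.34) and isozymes of other cells the lowest (-0.20), and the list of ChREBP targets outside lipogenesis spans both sides of 0 (median 0.12).

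The order of the 8 genes by level also differed between the genotypes. Per kilobase of exon, *Khk* was the most abundant in SHMT2fl/fl livers, at 163 ± 13.8 CPM per kb (SD, n = 3), and no other of the 8 genes overlapped it. *Thrsp* (55.7 CPM per kb), *Srebf1* (49.8), *Pklr* (43.2), *Slc2a2* (34.9), *Mlxipl* (31.2) and *Gckr* (25.5) followed, each overlapping its neighbour, and *Pnpla3* was last at 0.776 CPM per kb. In SHMT2HKO livers *Khk* (438 ± 134 CPM per kb) and *Thrsp* (390 ± 239) overlapped at the top, *Pklr* (154 ± 32.9) stood apart below them, and *Srebf1* (73.9), *Mlxipl* (66.6), *Slc2a2* (47.9) and *Gckr* (46.2) overlapped in turn. *Pnpla3* was again last, at 5.67 CPM per kb.

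The SHMT2HKO mice did not rank alike over the 8 genes. *Khk*, *Gckr*, *Thrsp* and *Pnpla3* were highest in SHMT2HKO mouse 2, *Mlxipl* and *Srebf1* in mouse 1, and *Pklr* and *Slc2a2* in mouse 3. Across the 6 mice, Pearson's r of log2 CPM with *Mlxipl* was 0.98 for *Gckr*, 0.92 for *Khk* and *Pklr* and 0.48 for *Slc2a2*, given as a description over 6 mice that share the genotype difference and the scaling. The genes most like each of the 8 by this measure, among 7187 candidates, included *Chkb* for *Pklr* (r = 0.9995), *Decr2* for *Thrsp* (0.9992), *Adhfe1* for *Pnpla3* (0.9992), *Cmbl* for *Khk* (0.9979) and *Rarres1* for *Mlxipl* (0.9968). For *Gckr* the first was *Slc39a8* (0.994), followed by *Tkfc* (0.9937). With 6 mice such values are common, and 1291 candidates had an r over 0.9 with *Khk*.

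A ratio of 2 genes within a mouse does not depend on how libraries are scaled. The log2 ratio of *Pklr* to *Pkm* was 0.67, 0.39 and 0.16 in SHMT2fl/fl mice and 2.37, 2.87 and 3.17 in SHMT2HKO mice, so liver pyruvate kinase gained 5.27-fold on the form of other cells. *Pnpla3* gained 6.36-fold on *Pnpla2* and *Thrsp* 5.69-fold on *Mid1ip1*, with no overlap between genotypes. *Mlxipl* gained 2.90-fold on *Mlxip*, where SHMT2HKO mouse 3 (3.74) lay nearest to the SHMT2fl/fl mice (2.57 to 3.31). The ratios of *Srebf1* to *Srebf2* and *Slc2a2* to *Slc2a1* overlapped between genotypes, with differences of 0.44 and 0.34 on the log2 scale. The difference for *Slc2a2* to *Slc2a1* was -0.01 without SHMT2HKO mouse 3. No test was run on these ratios.

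**Figure D3:**
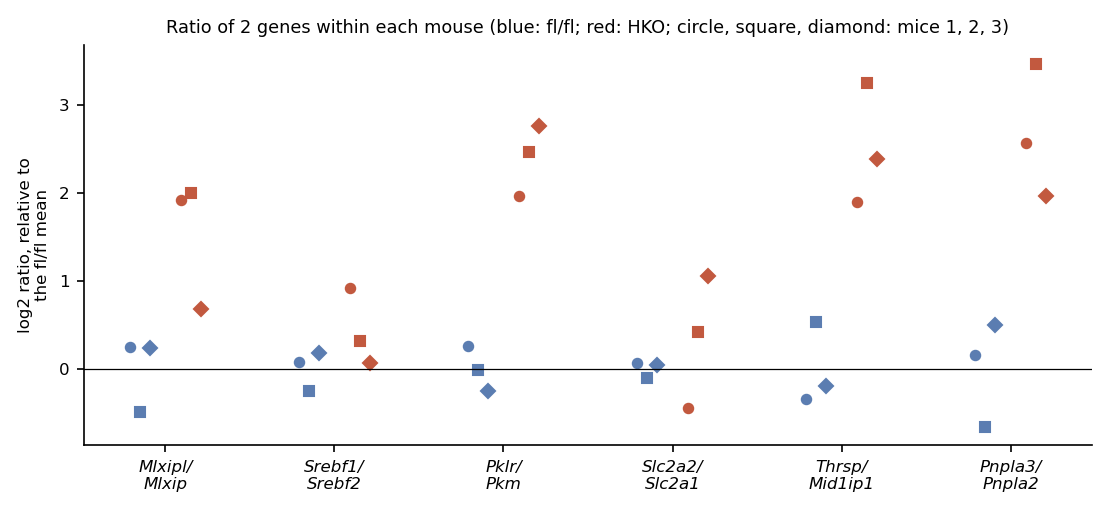
Log2 ratio of 2 genes in each mouse, relative to the SHMT2fl/fl mean of that ratio, for SHMT2fl/fl (blue) and SHMT2HKO (red) mice. The genotypes are apart for 4 of the 6 ratios shown, by most for *Pnpla3* to *Pnpla2* (2.67 on the log2 scale), and overlap for *Srebf1* to *Srebf2* and *Slc2a2* to *Slc2a1*.

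Markers of cell types and traits of the libraries also differed between the genotypes. Mitochondrially encoded transcripts held between 3.25% and 3.63% of gene counts in SHMT2fl/fl and between 4.30% and 4.97% in SHMT2HKO mice, and genes with at least 1 count numbered between 23218 and 24340 and between 20936 and 22703. The part of these traits in the differences above was not tested. In bulk liver RNA, fewer cells of a type and less RNA per cell cannot be told apart. The 7 hepatocyte markers had a median log2 fold change of 0.56 with TMM, 0.11 without TMM and -0.26 with ERCC scaling, with 2 called higher under TMM and 0 higher and 1 lower under each of the other scalings, and *Tat* was at -0.66 (adjusted p = 0.0718). Their summed level was 51458, 52505 and 62786 CPM in SHMT2fl/fl mice and 89606, 93512 and 63976 CPM in SHMT2HKO mice, most of it *Alb*. All 5 bile duct markers were called lower (median -2.97), and their sum, mostly *Spp1*, went from between 951 and 1181 CPM to between 128 and 245 CPM. Of 6 stellate cell markers 3 were called lower, of 4 T cell markers 3 lower, and of 6 macrophage markers 2 higher (*Clec4f* and *Vsig4*) and 2 lower (*Trem2* and *Cd68*). Macrophage markers called were 1 higher and 3 lower without TMM, and 1 higher and 2 lower with ERCC scaling. Of 4 endothelial markers 1 was called higher under TMM, while 0 were higher and 1 lower without TMM, and 0 were called with ERCC scaling. The B cell and neutrophil markers did not pass under TMM (medians -0.89 and 0.03), while 2 of 3 B cell markers were called lower both without TMM and with ERCC scaling. Of the stellate markers, 5 were lower without TMM and 2 with ERCC scaling. Of all 16089 genes tested, 2651 were called lower under TMM, 4923 without TMM and 2759 with ERCC scaling. Those called higher numbered 2012, 539 and 107 in the same order. The pancreatic genes *Cpa1* and *Ins2* had 0 counts in all 6 mice. The fat cell marker list summed to 1.15, 2.93 and 2.22 CPM in SHMT2fl/fl and 98.3, 62.3 and 11.0 CPM in SHMT2HKO mice, nearly all of it *Cfd*, while its defining gene *Lep* was at 0 in 5 of 6 mice. Of the intestinal markers *Fabp2*, which the liver also expresses, was called higher and *Vil1* lower, and *Cdx2* had at most 2 counts in any mouse.

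Relative to the hepatocyte markers, the genotype difference was smaller than under TMM, and larger than with ERCC scaling, for all 8 genes. Each level was divided by the geometric mean of the 7 markers in the same mouse, an alternative chosen after seeing the data and not tested. The same shift therefore entered all 8 genes of a mouse. The log2 difference was 2.44 for *Pnpla3*, 2.36 for *Thrsp*, 1.48 for *Pklr*, 1.04 for *Khk*, 0.75 for *Mlxipl* and 0.51 for *Gckr*, and the genotypes did not overlap for these 6. It was 0.22 for *Srebf1* and 0.07 for *Slc2a2*, with overlap. Relative to *Alb* alone, *Pklr* (1.29), *Khk* (0.84), *Thrsp* (2.17) and *Pnpla3* (2.25) remained apart, and *Mlxipl* (0.55), *Gckr* (0.32), *Srebf1* (0.02) and *Slc2a2* (-0.13) overlapped. The part of cell makeup in the remaining differences was not tested.

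**Figure D4:**
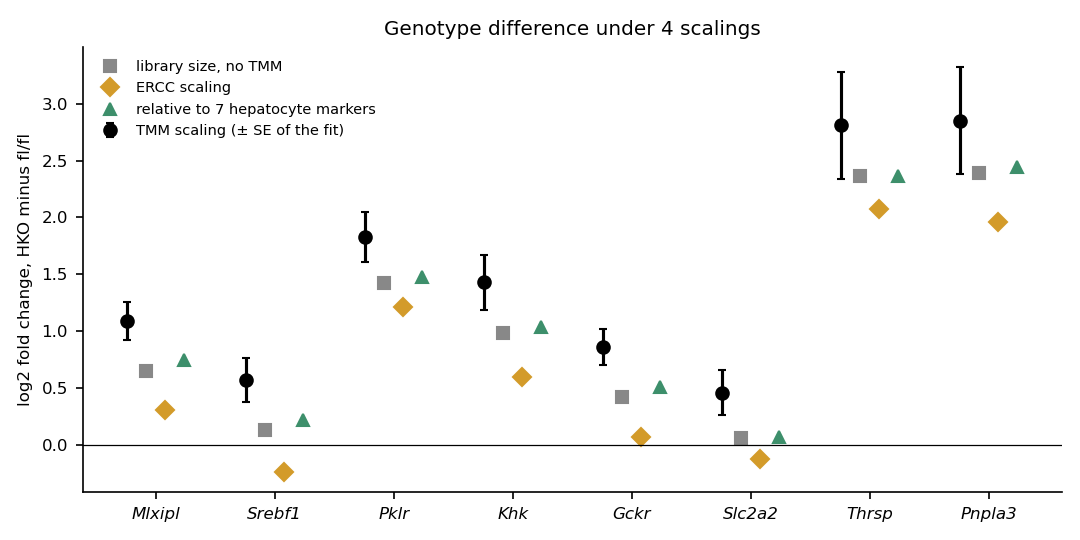
Log2 fold change (SHMT2HKO minus SHMT2fl/fl) of the 8 genes with TMM scaling (black, ± SE of the fit), library size alone (grey), ERCC scaling (gold) and relative to 7 hepatocyte markers (green). *Thrsp*, *Pnpla3* and *Pklr* lie above 1 under all 4, while *Srebf1* (-0.24) and *Slc2a2* (-0.12) fall below 0 with ERCC scaling.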

How the data were processed

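The authors sequenced NEBNext Ultra libraries as read pairs, trimmed them (Trimmomatic 0.36), aligned them with STAR 2.5.2b to GRCm38 with the ERCC sequences, and, per the submitters' processing notes, counted reads on genes with featureCounts of Subread 1.5.2. The deposited values are raw counts without normalization. Use of the strand is not given in the sources used here, so reads of a gene and its antisense partner cannot be told apart.

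The 92 ERCC entries entered neither library sizes nor tests. Gene IDs (49671) were named from the reference annotation, and 345 without a symbol held 0.0416% of gene counts. Low genes were removed with filterByExpr, and counts were scaled by TMM and compared between genotypes with edgeR 4.0.16 (R 4.3.3) by the two-sided quasi-likelihood F test with robust dispersions. Adjusted p-values are by Benjamini-Hochberg over the genes tested in each fit (16089 unless mice were left out or the filter changed), and a gene was called under 0.05. SE is that of the fitted log2 fold change. The p-values test the genotype difference against the spread between these mice and take the mice as independent. Whether the mice shared litters or cages is not given. No pair of mice within a group was close enough to be 1 library deposited again. The code was tested on simulated data, where the share of false calls was above the nominal level.

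The 8 genes and all lists were chosen with earlier results of these data known. List genes are named where called with an absolute log2 fold change of at least 1, or as paralog or enzyme partner of a member. Some genes of this rule and the ratios that need them are not reported here. Other genes named in the text were chosen after their values were seen. For likeness, 2 genes per member were ranked by Pearson's r of log2 (CPM + 0.5) among genes with a mean log2 CPM of at least 4. Promoter windows are those of RefSeq (GRCm38.p6), 250 bases before each start. Alternatives were DESeq2 1.42.0, limma-voom (limma 3.58.1), no TMM, upper-quartile and ERCC scaling, no filter beyond 1 count, at least 10 counts in every sample, no robust dispersions, a replicate block, and leaving out each mouse.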

Additional observations from a re-analysis of the deposited data

How the results depend on the processing

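*Pklr*, *Thrsp* and *Pnpla3* were called in all 15 alternatives, *Mlxipl* and *Khk* in 14 (all but ERCC scaling) and *Gckr* in 13 (all but ERCC scaling and library size without TMM). *Srebf1* was called in 3 and *Slc2a2* in 1, and with ERCC scaling their log2 fold changes reversed, to -0.24 and -0.12. ERCC scaling also lowered the members called from 6 to 3, the members with groups apart from 7 to 3, all genes called from 4663 to 2866 and pathway genes called higher from 41 to 3. Library size without TMM gave 17 pathway genes higher and 16 lower, beside 539 higher and 4923 lower of all 16089 genes tested. The share of calls that were higher was 43.1% with TMM, 32.5% with upper-quartile scaling, 9.87% without TMM (median gene moved by -0.42) and 3.73% with ERCC scaling (moved by -0.72). ERCC counts were 1.35% to 2.75% of a library's total, lowest in SHMT2HKO mouse 3, and whether the spike-in amounts were equal across mice was not tested.

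Leaving out 1 mouse gave between 2426 (without SHMT2fl/fl mouse 3) and 5597 (without SHMT2HKO mouse 3) genes called, between 6 and 7 of the 8 members, between 17 and 43 pathway genes higher and between 5 and 12 lower. The fewest pathway genes higher were called without SHMT2fl/fl mice 1, 2 and 3 (20, 20 and 17) and without SHMT2HKO mouse 2 (25), and the cause was not tested. Between mice of the same number, 1 to 3, the correlation of deviations was -0.046, 0.013 and -0.077. With 3 mice a group, these values cannot settle whether same-numbered mice shared a litter, cage or batch. With the replicate number as a block, 3584 genes and the same number of members (6) were called, the count of liver glycolytic enzymes called higher was 4 in place of 8, and that of the pentose phosphate pathway 0 in place of 2. For the 19 pathway genes called with an absolute log2 fold change of at least 1, 238 of 282 alternative values kept their direction and side of the threshold, 44 no longer passed, 12 of them with ERCC scaling, and 0 reversed. With 3 mice a group and counts per gene, isoforms of *Mlxipl*, *Srebf1*, *Khk* and *Pklr* and changes smaller than the spread between mice were not detectable.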

Other observations

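*Khk* and *Gckr*, which encode the enzyme that makes fructose 1-phosphate and the protein that fructose 1-phosphate acts on, lie at the ends of a stretch of 406 kb on chromosome 5 of GRCm38 (30921431 to 31327314), with 26 annotated genes between them. Of the 18 of these that were tested, 1 was called higher in SHMT2HKO livers (*Fndc4*, 0.68 on the log2 scale, adjusted p = 0.0197) and 2 lower (*Snx17*, -0.47, and *Krtcap3*, -1.41), where 12.5% of all genes tested were called higher and 16.5% lower. The median log2 fold change of the 18 was 0.09, against 1.43 for *Khk* and 0.86 for *Gckr*.

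The CCAAT box was found in 8 of the 12 windows of the 8 genes, at least 1 for every gene but *Khk*, and in 33.8% of all 32851 windows.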
